A study of Rattus norvegicus with 9 samples.

Results

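The genes described here are 10 genes of serotonin signalling: the brain tryptophan hydroxylase Tph2, the serotonin transporter Slc6a4, and the receptors Htr1a, Htr1b, Htr1d, Htr2a, Htr2c, Htr3a, Htr4 and Htr7. They were chosen by gene symbol, as every non-control probe whose gene name on the array is one of these symbols. That gave 16 probes of 10 genes, out of 45598 probes on the array. The 9 animals were female spontaneously hypertensive rats (SHR, an inbred strain with high blood pressure), and 1 rat was measured on each 1-colour Agilent array. All had their ovaries removed at 4 weeks of age, recovered for 1 week and carried a subcutaneous minipump until they were killed at 9 weeks. The pump of the 5 OV+E2 rats held estradiol in polyethylene glycol (PEG) at 0.33 mg/ml and released 2 µg a day, and that of the 4 OV rats held PEG alone. SHR strain, ovariectomy and pump were thus shared by both groups. The amygdala of both sides was taken, and 200 ng of RNA from each rat was labelled.

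Serotonin in the forebrain is released by axons of neurons whose cell bodies lie in the raphe nuclei of the brainstem. Those neurons make serotonin with Tph2 and Ddc, load it into vesicles with Slc18a2 and take it up again through Slc6a4. The amygdala, a forebrain region of fear and anxiety responses, receives such axons and expresses the receptors. Htr1a, Htr1b and Htr1d couple to inhibitory Gi proteins, Htr2a and Htr2c to Gq, Htr4 and Htr7 to Gs, and Htr3a is a subunit of a cation channel opened by serotonin.

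The sequences of 6 probes on which the receptor values rest are shown first, each 60 bases, written 5′ to 3′ as on the array. The first 3 belong to the related Gi-coupled receptors. Their capitals mark a stretch of 18 bases that starts with gactt in each of them, so that the similarity of the 3 probes can be seen.

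Htr1a: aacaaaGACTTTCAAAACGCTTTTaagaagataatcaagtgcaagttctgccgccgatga

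Htr1b: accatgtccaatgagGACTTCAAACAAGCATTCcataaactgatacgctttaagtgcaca

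Htr1d: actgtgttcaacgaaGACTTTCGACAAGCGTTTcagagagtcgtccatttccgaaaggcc

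In the rat build rn4, as the file headers give it, these probes lie at chr2:36435727-36435786 (plus strand), chr8:86700094-86700153 (minus strand) and chr5:155189728-155189787 (plus strand). Htr1a and Htr1b had 12 of the 18 bases in common, Htr1a and Htr1d 14, and Htr1b and Htr1d 13. Over the aligned length the same bases numbered 27 of 51, 29 of 51 and 33 of 60 in those pairs. Whether RNA of one receptor binds the probe of another was not tested.

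The other 3 are the dimmer Htr2c probe, the single Htr3a probe and an Htr4 probe that was low in some rats. They have no capitals, since no shared stretch was looked for in them.

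Htr2c: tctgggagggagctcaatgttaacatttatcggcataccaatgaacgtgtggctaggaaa

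Htr3a: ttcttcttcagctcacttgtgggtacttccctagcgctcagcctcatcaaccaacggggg

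Htr4: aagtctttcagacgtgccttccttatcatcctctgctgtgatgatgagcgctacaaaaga

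They lie at chrX:31015679-31015738 (minus strand), chr8:52161175-52161234 (minus strand) and chr18:58445640-58445699 (plus strand) of rn4. The files do not annotate the exon or the transcript part in which each probe lies.

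Signals are given below as relative signal, the processed intensity of the probe divided by the 75th percentile of its array. Differences are OV+E2 minus OV on the log2 scale, from limma. Only probes that 4 or more of the 9 arrays measured well above background were tested. Values in a sentence follow replicates 1 to 5 for OV+E2 and replicates 1, 2, 3 and 5 for OV. Slide 1 held OV+E2 replicates 1 and 2 and OV replicates 1, 2 and 3. Slide 2 held OV+E2 replicates 3, 4 and 5 and OV replicate 5, so every difference within slide 2 rests on 1 OV rat. Probes differ in how well they bind, so levels are compared between rats and never between probes.

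OV replicate 3 stood apart from the other arrays. Its 75th percentile was 129.7, against 556.8 to 737.6 on the other 8, it had 24225 probes well above background, against 29052 to 31395, and its mean correlation with the other arrays was 0.932, against 0.981 to 0.984. The authors' own value table also departs from the scanner file for that rat, with an SD of their log2 ratio of 1.00, against 0.00417 to 0.0307 for the other arrays. The authors' column for that rat correlated with each of their other columns at 0.983 or more, and which of the deposited versions is its true array is not known. Values of OV replicate 3 below are those of its scanner file unless the authors' table is named, and the receptor differences are given with and without it. Of the 11 amygdala markers on the array 10 were tested, and their summed relative signal was 117 to 129 in OV+E2 rats and 109 to 136 in OV rats (109 to 125 without OV replicate 3). Most of that sum came from Sst and Ppp1r1b. Of the amygdala markers Ppp1r1b was also listed for the striatum and Prkcd for the thalamus. The excitatory neuron transporter Slc17a7, among those markers, was higher by 0.30 on its brightest probe at an unadjusted p under 0.05. Without OV replicate 3 that probe was higher by 0.29. With all arrays its other tested probe was at −0.11.

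Markers of other tissue and cell types were also compared between the groups, each list with 0 genes at an adjusted p under 0.05. Over all probes 3.21% were higher and 7.17% lower in OV+E2 at an unadjusted limma p under 0.05. Without OV replicate 3 these shares were 5.86% and 8.26%. Of 9 endothelium and blood genes 7 were lower in OV+E2, 6 of them at an unadjusted p under 0.05 (8 and 6 without OV replicate 3). The summed relative signal of the 9 was 111 to 152 in OV+E2 rats and 160 to 174 in OV rats. Most of that sum came from the haemoglobin gene Hba-a1. Its difference was −0.33 on the brightest probe (−0.13 in the authors' table) and +0.20 on its other tested probe. Of 8 microglia genes 5 were lower, 4 at that p (6 and 3 without OV replicate 3). Their sums were 26.4 to 30.4 in OV+E2 rats and 32.5 to 46.9 in OV rats. Of 8 meninges and fibroblast genes 5 were lower, 4 at that p (7 and 5 without OV replicate 3). Their sums were 39.95 to 43.3 in OV+E2 rats and 43.8 to 56.7 in OV rats. The sums of these 3 lists did not overlap between the groups, with or without OV replicate 3. Those of the amygdala, interneuron, thalamus, hypothalamus, striatum, hippocampus, neuron, astrocyte, oligodendrocyte and choroid plexus lists did overlap. The share of all probes without overlap is not given, so this is only a description. Of 10 hypothalamus genes 9 were lower, 4 at that p (7 and 4 without OV replicate 3), with sums of 32.0 to 68.8 in OV+E2 rats and 52.3 to 108 in OV rats. All 8 oligodendrocyte genes were lower, 1 at that p, and all 7 tested thalamus genes were higher, 1 at that p (6 of 7 and 0 without OV replicate 3). Of 9 striatum genes 5 were lower, of 9 hippocampus genes 6 and of 8 astrocyte genes 6, with 0 at that p in each list. Of 8 neuron genes 2 were lower, 1 at that p, and 6 higher. These counts use the brightest tested probe of each gene. Of the genes counted as lower, Vwf, Slco1a4, Hba-a1, Itgam, Hdc, Mbp, Mog, Mobp, Prox1, Fibcd1 and Sox9 had another tested probe that was higher. The part of these tissues in the serotonin results was not tested. In RNA of a whole tissue, fewer cells of a type and less RNA per cell cannot be told apart.

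Transcripts of the serotonin receptors were measured in these amygdalae, and none of them differed between the groups at the threshold. Of the 16 probes 11 were tested, from 7 genes: Htr1a, Htr1b, Htr1d, Htr2a, Htr2c, Htr3a and Htr4. In limma 0 of the 11 had an adjusted p under 0.05 or an unadjusted p under 0.05, and the smallest adjusted p was 0.481. Over all 30215 probes 0 passed the adjusted threshold (0% called), and 10.4% had an unadjusted p under 0.05, 3.21% higher and 7.17% lower in OV+E2. Among the 11 receptor probes 5 were higher and 6 lower in OV+E2, with a median difference of −0.02, beside 0.00 over all probes tested. Without OV replicate 3 there were again 0 at an adjusted p under 0.05, as against 0.00331% of all probes, and 0 at an unadjusted p under 0.05, as against 14.1% (5.86% higher and 8.26% lower). In that fit 3 were higher and 8 lower, with a median of −0.09, beside 0.01 over all probes. On every one of the 16 probes the ranges of the groups overlapped. The share of all probes with such an overlap is not given.

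**Figure D1:**
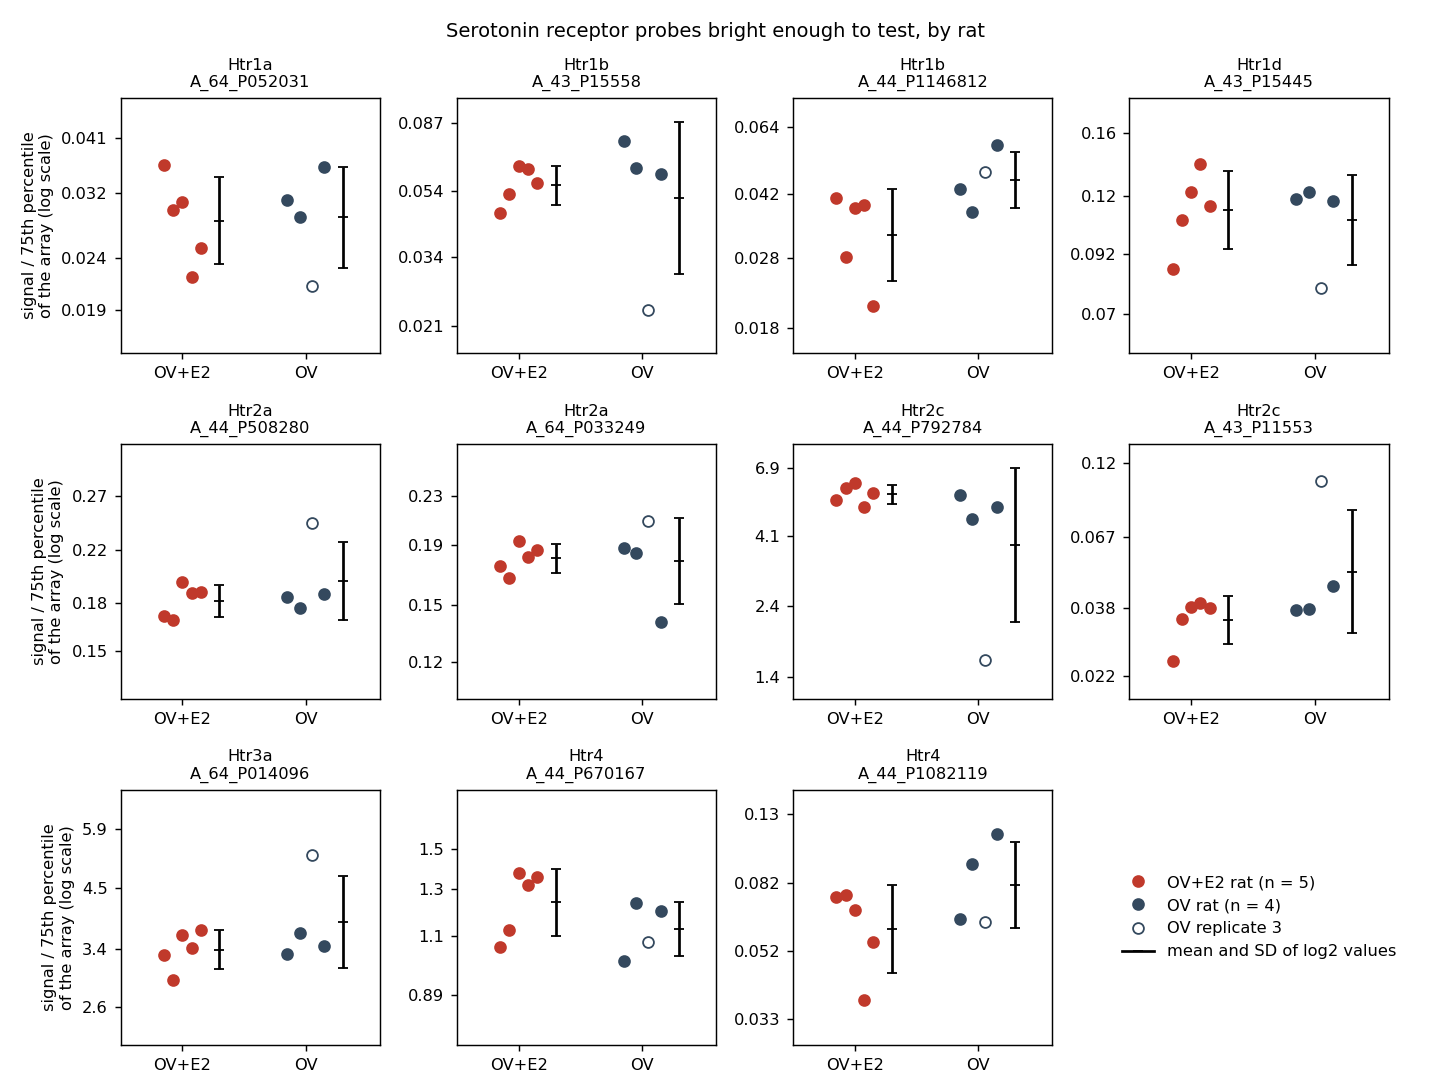
Relative signal (log axis, signal divided by the 75th percentile of the array) of the 11 tested receptor probes in 5 OV+E2 and 4 OV rats, with OV replicate 3 as an open circle and the mean and SD of the log2 values as bars. The groups overlap in every panel, and the open circle is the lowest OV point for Htr1a, Htr1d, Htr1b A_43_P15558, Htr4 A_44_P1082119 and the brighter Htr2c probe and the highest for Htr3a, the dimmer Htr2c probe and both Htr2a probes.

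The 2 genes that mark serotonin neurons themselves were not well above background on any array. Tph2, which makes brain serotonin from tryptophan, was well above background on 0 of 9 arrays (probe at chr7:54321309-54321368, minus strand). Its processed intensity was 8.83, 19.6, 20.7, 17.6 and 20.5 in OV+E2 rats and 24.6, 14.3, 6.83 and 17.8 in OV rats. Slc6a4, the reuptake transporter on serotonin axons, was likewise well above background on 0 of 9 arrays (chr10:67140063-67140122, minus strand), with an intensity of 3.28 to 10.5 in OV+E2 rats and 2.51 to 4.90 in OV rats. No fold is given for either gene, since neither group measured it. The raphe transcription factors Fev and Gata3 were also above background on 0 arrays.

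The other 6 raphe markers listed, some of which other cells also express, were tested, with 3 higher and 3 lower in OV+E2 and a median difference of −0.12. Without OV replicate 3 all 6 were lower, with a median of −0.28. Their summed relative signal was 2.04 to 2.53 in OV+E2 rats, against 2.36 to 2.90 in the OV rats other than replicate 3, for which 1 spot was marked as an outlier. Lmx1b, a transcription factor of raphe and other midbrain neurons, was lower at −0.85 (SE 0.25, adjusted p = 0.310), and at −0.57 without OV replicate 3. The part of the raphe markers in the serotonin results was not tested.

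Among the Gi-coupled receptors Htr1a, which is both the autoreceptor of raphe neurons and a receptor on forebrain neurons, was close to background. It had a relative signal of 0.0363, 0.0297, 0.0308, 0.0220 and 0.0250 in OV+E2 rats and 0.0310, 0.0288, 0.0212 and 0.0360 in OV rats. The highest and the second lowest of the 9 values were both from OV+E2 rats, and the groups overlapped. The probe was well above background on 2 OV+E2 and 2 OV arrays. The difference was −0.02 (SE 0.19, 95% interval −0.45 to 0.41, adjusted p = 0.960), and −0.17 without OV replicate 3. It was +0.30 within slide 1 and −0.49 within slide 2.

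Htr1b, a receptor on axon terminals that limits transmitter release, has 2 probes, whose differences had opposite signs with OV replicate 3 and the same sign without it. Probe A_43_P15558, printed above, had a relative signal of 0.0463, 0.0530, 0.0645, 0.0630 and 0.0573 in OV+E2 rats and 0.0770, 0.0635, 0.0234 and 0.0611 in OV rats. OV replicate 3 was the lowest of the 9 and OV replicate 1 the highest. Its difference was +0.13 (SE 0.32, adjusted p = 0.833), and −0.25 (SE 0.13, 95% interval −0.55 to 0.05) without OV replicate 3. The second probe, A_44_P1146812, is at chr8:86683851-86683910 on the minus strand. The array annotates it to a predicted non-coding transcript record and the first probe to a messenger RNA record. Whether the second probe measures the receptor's messenger RNA was not tested.

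That second Htr1b probe had a relative signal of 0.0409, 0.0282, 0.0386, 0.0391 and 0.0208 in OV+E2 rats and 0.0434, 0.0374, 0.0482 and 0.0571 in OV rats. OV+E2 replicates 2 and 5 were the lowest of the 9 and only OV replicate 2 lay within the range of the OV+E2 rats. The difference was −0.50 (SE 0.22, 95% interval −1.004 to 0.00188), with an unadjusted limma p of 0.0507, an adjusted p of 0.481 and an exact two-sided permutation p of 0.0635 over every arrangement of the 9 arrays. It was −0.48 without OV replicate 3, −0.33 within slide 1 and −0.86 within slide 2. In the authors' value table both probes were lower in OV+E2, at −0.31 (unadjusted limma p = 0.0331, adjusted p = 0.221) and −0.57 (unadjusted limma p = 0.0324, adjusted p = 0.219).

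Htr1d, a second terminal receptor, had a relative signal of 0.0858, 0.107, 0.122, 0.139 and 0.115 in OV+E2 rats and 0.118, 0.122, 0.0790 and 0.117 in OV rats. The OV rats other than replicate 3 lay close together inside the range of the OV+E2 rats. The difference was +0.06 (SE 0.18, 95% interval −0.34 to 0.46, adjusted p = 0.860), and −0.09 (SE 0.14) without OV replicate 3.

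Of the Gq-coupled receptors Htr2a, the receptor through which many hallucinogens and atypical antipsychotics act, varied little between rats. Probe A_44_P508280 (chr15:55533559-55533618, plus strand) had a relative signal of 0.171, 0.169, 0.195, 0.187 and 0.187 in OV+E2 rats and 0.184, 0.177, 0.244 and 0.186 in OV rats. All rats but OV replicate 3 lay within the range of the OV+E2 group. The difference was −0.11 (SE 0.12, 95% interval −0.37 to 0.15), and −0.00478 without OV replicate 3, where the interval ran from −0.16 to 0.15. Probe A_64_P033249 (chr15:55532171-55532230, plus strand) gave 0.175, 0.167, 0.193, 0.181 and 0.186 in OV+E2 rats and 0.187, 0.184, 0.209 and 0.140 in OV rats. Here the OV rats held both the lowest and the highest value, and the difference was +0.01 (SE 0.12, 95% interval −0.26 to 0.29), and +0.09 without OV replicate 3. The third Htr2a probe was well above background on 0 arrays.

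Htr2c, the other Gq-coupled receptor, is found in neurons and at a high level in the choroid plexus, the epithelium that makes cerebrospinal fluid. Its brighter probe A_44_P792784 (chrX:31013361-31013420, minus strand) had a relative signal of 5.41, 5.91, 6.16, 5.12 and 5.73 in OV+E2 rats and 5.63, 4.68, 1.59 and 5.15 in OV rats. OV replicate 3 was far below all others, OV replicate 2 was the next lowest, and OV replicates 1 and 5 lay within the OV+E2 range. The difference was +0.56 (SE 0.34, 95% interval −0.21 to 1.33, adjusted p = 0.518, exact permutation p = 0.0794). It was +0.14 (SE 0.09, 95% interval −0.07 to 0.34) without OV replicate 3, +0.70 within slide 1, which holds that array, and +0.14 within slide 2. In the authors' table OV replicate 3 stood at 3200 and their other columns between 3076 and 4059, with a difference of +0.16.

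The dimmer Htr2c probe, A_43_P11553, leaned the other way. Its relative signal was 0.0248, 0.0346, 0.0381, 0.0396 and 0.0378 in OV+E2 rats and 0.0374, 0.0376, 0.104 and 0.0453 in OV rats. OV replicate 3 was the highest and OV+E2 replicate 1 the lowest, and the remaining rats lay close together. The difference was −0.56 (SE 0.31, adjusted p = 0.514), and −0.21 (SE 0.16, 95% interval −0.58 to 0.16) without OV replicate 3.

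Choroid plexus genes differed widely between these rats. All 12 listed were tested and 12 were higher in OV+E2 on their brightest probe, 0 of them at an unadjusted p under 0.05. The median difference was +0.78, and +0.98 without OV replicate 3. Other tested probes of Otx2 and Kcne2 were lower, down to −0.85 and −0.14. Their summed relative signal was 356, 508, 264, 344 and 385 in OV+E2 rats and 361, 19.6, 769 and 322 in OV rats. OV replicates 1 and 5 thus lay within the OV+E2 range. Ttr, which encodes transthyretin and made up most of that sum, stood at 10.72 in OV replicate 2 and at 744 in OV replicate 3. In the authors' table Ttr was also lowest in OV replicate 2, at 7099, but OV replicate 3, at 158719, was below the other 7 rats, at 165951 to 304607. In the scanner files OV replicate 2 thus had the lowest sum and the second lowest brighter Htr2c signal, and OV replicate 3 had the highest sum and the lowest brighter Htr2c signal. With OV replicates 2 and 3 both left out, a setting chosen after these values were seen, the brighter Htr2c probe differed by +0.07 (SE 0.09). As a description over rats that share array and tissue, Pearson's r between the brighter probe and the sum was −0.58 over 9 arrays (Spearman's rho 0.03), 0.62 over the 8 without OV replicate 3 (rho 0.48) and 0.12 over the 7 without OV replicates 2 and 3 (rho 0.21), so the relation rests on those rats. The part of the choroid plexus in the Htr2c values was not tested.

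**Figure D2:**
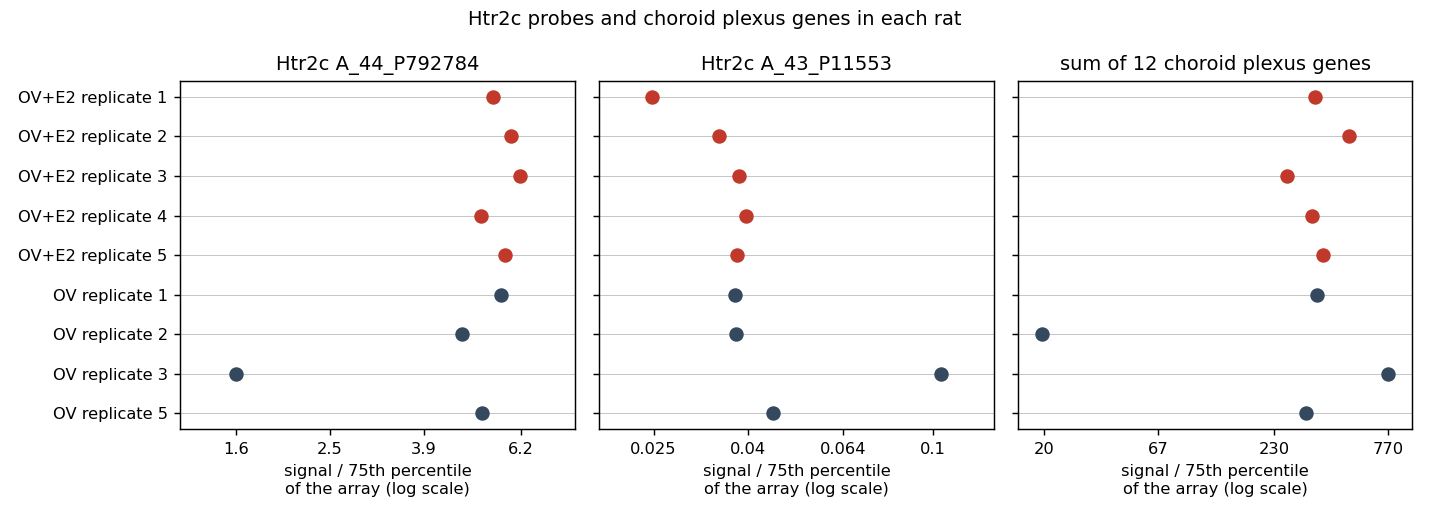
Relative signal (log axes) in the scanner files of the brighter Htr2c probe, the dimmer Htr2c probe and the sum of 12 choroid plexus genes in each rat, OV+E2 in red above OV in dark blue. OV replicate 2 has a choroid plexus sum of 19.6 and a bright Htr2c signal of 4.68, and OV replicate 3 has a sum of 769 and a bright Htr2c signal of 1.59.

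Htr3a, the channel-forming subunit carried by a class of cortical and amygdalar interneurons, was bright on all 9 arrays. Its relative signal was 3.31, 2.94, 3.61, 3.41 and 3.71 in OV+E2 rats and 3.32, 3.65, 5.24 and 3.44 in OV rats. OV replicate 3 was the highest and OV+E2 replicate 2 the lowest, and the other OV rats lay inside the OV+E2 range. The difference was −0.18 (SE 0.15, 95% interval −0.52 to 0.15, adjusted p = 0.554), and −0.03 (SE 0.09, 95% interval −0.24 to 0.17) without OV replicate 3.

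Genes listed as markers of the interneurons that carry Htr3a, which arise in the caudal ganglionic eminence, were set beside it. Not all are particular to these cells, and Prox1 was also listed for the hippocampus. Of 12 listed 11 were tested, 7 higher and 4 lower in OV+E2, with a median difference of +0.05 (0.00448 without OV replicate 3) and a summed relative signal of 192 to 216 in OV+E2 rats and 175 to 228 in OV rats. At an unadjusted p under 0.05 stood Vip, a neuropeptide, at +0.36, and Sncg, gamma-synuclein, at −0.44, and without OV replicate 3 they were at +0.29 and −0.45. Chrna2 was above background on 0 arrays. Cck made up most of the summed signal of this list. The part of these cells in the Htr3a values was not tested.

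Htr4, a Gs-coupled receptor, has 3 probes. Probe A_44_P670167 (chr18:58470299-58470358, plus strand) had a relative signal of 1.06, 1.12, 1.38, 1.32 and 1.36 in OV+E2 rats and 1.01, 1.24, 1.08 and 1.204 in OV rats. OV+E2 replicates 3, 4 and 5 were above all OV rats, and OV+E2 replicates 1 and 2 lay among them. The difference was +0.14 (SE 0.12, 95% interval −0.13 to 0.41, adjusted p = 0.568), +0.12 without OV replicate 3, −0.02 within slide 1 and +0.17 within slide 2. Replicates 3, 4 and 5 of OV+E2 were the ones on slide 2.

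The Htr4 probe A_44_P1082119, printed above, had a relative signal of 0.0745, 0.0759, 0.0685, 0.0374 and 0.0551 in OV+E2 rats and 0.0645, 0.0930, 0.0633 and 0.114 in OV rats. OV+E2 replicates 4 and 5 were the lowest of the 9 and OV replicates 2 and 5 the highest. The difference was −0.43 (SE 0.26, 95% interval −1.01 to 0.16, adjusted p = 0.518), and −0.55 without OV replicate 3. Within slide 1 it was +0.05 and within slide 2, with 1 OV rat, −1.13. In the authors' table it was −0.67 (unadjusted limma p = 0.0263, adjusted p = 0.199).

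The third Htr4 probe, A_64_P108419 (chr18:58509623-58509682, plus strand), was well above background on 2 of 9 arrays and was not tested. Its processed intensity was 6.52, 259, 3.61, 3.55 and 4.79 in OV+E2 rats and 10.2, 12.2, 2.66 and 33.5 in OV rats. OV+E2 replicate 2 alone was bright, while the other Htr4 probes of that rat lay within the range of the other rats.

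Htr7, the other Gs-coupled receptor, was well above background in OV replicate 5 alone (chr1:240145408-240145467, minus strand). Its processed intensity was 15.95, 10.8, 11.1, 13.4 and 7.16 in OV+E2 rats and 15.2, 9.76, 2.69 and 19.8 in OV rats. With 1 of 9 arrays measuring it, no fold is given.

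**Figure D3:**
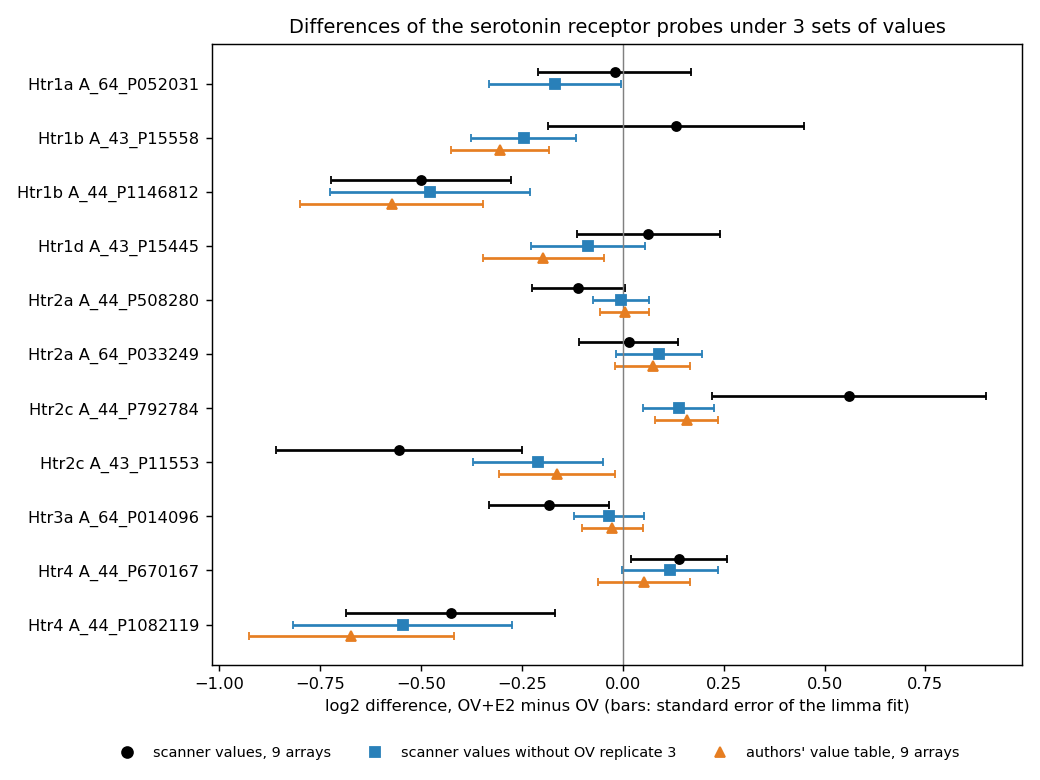
Log2 differences (OV+E2 minus OV) of the 11 tested receptor probes with all 9 arrays, without OV replicate 3 and in the authors' value table, with standard errors of the limma fit as bars. The brighter Htr2c probe lies at +0.56 with all arrays and at +0.14 without OV replicate 3, and the first Htr1b probe at +0.13 and −0.25.

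In the authors' values 10 of the receptor probes could be tested, of which 0 passed the adjusted threshold, where 0.230% of 30000 probes did. At an unadjusted p under 0.05 it had 3 of the 10, all lower in OV+E2 (both Htr1b probes and the Htr4 probe A_44_P1082119), where 18.8% of all probes did, 8.47% higher and 10.4% lower. Without OV replicate 3 that table gave 0 of 10.

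The rest of the serotonin pathway was taken from a list of 27 other genes: receptors, enzymes, carriers and binding partners. Of these 25 were tested and 0 had an adjusted p under 0.05. At an unadjusted p under 0.05 3 were higher and 2 lower in OV+E2, against 3.21% and 7.17% of all probes, and the median difference was −0.03. Without OV replicate 3 the counts were 2 and 2, against 5.86% and 8.26% of all probes, and the median 0.01. The receptors Htr1f and Htr3b were above background on 0 arrays.

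Ddc, the decarboxylase that completes serotonin and also dopamine synthesis, had a relative signal of 1.497, 1.21, 1.36, 1.22 and 1.39 in OV+E2 rats and 1.54, 1.72, 1.93 and 1.78 in OV rats. All OV+E2 rats lay below all OV rats, by a small margin between OV+E2 replicate 1 and OV replicate 1. The share of all probes on which the groups separate is not given, so this separation is only a description. The difference was −0.38 (SE 0.11, adjusted p = 0.287), and −0.33 without OV replicate 3. Its 3 tested probes ranged from −0.38 to −0.18. Gch1, which starts the synthesis of the cofactor of tryptophan and tyrosine hydroxylases, was lower at −0.61 (adjusted p = 0.431), and at −0.37 without OV replicate 3. The hypothalamus genes and the endothelium, microglia and meninges genes given above were also mostly lower in OV+E2, among them Avp (vasopressin) at −1.08 and Oxt (oxytocin) at −0.82, and their part in the Ddc and Gch1 values was not tested.

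On the higher side were Htr2b, Mpdz and Ric3. Htr2b, a Gq-coupled receptor scarce in brain, had a relative signal of 0.0601, 0.0596, 0.0693, 0.115 and 0.0757 in OV+E2 rats and 0.0292, 0.0745, 0.0280 and 0.0454 in OV rats. It was well above background on 5 of 5 OV+E2 and 2 of 4 OV arrays, and OV replicate 2 lay among the OV+E2 rats. Its difference was +0.85 (SE 0.32, adjusted p = 0.409), and +0.67 without OV replicate 3. Mpdz, a scaffold protein that binds the tail of Htr2c, was at +0.37 (adjusted p = 0.412), and at +0.23 without OV replicate 3. Ric3, a chaperone of channels such as the one Htr3a forms, was at +0.22 (adjusted p = 0.414) on its brighter probe (+0.19 without OV replicate 3) and at −0.34 on the other.

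Leaving out OV replicate 3 moved several other pathway genes. Without it Htr6, a Gs-coupled receptor, was at −0.51 in place of −1.27, and Tph1, the tryptophan hydroxylase of peripheral tissues, at +0.01 in place of −0.67. The G protein subunit Gnaq was at −0.03 in place of −0.81 and the serotonin-degrading Maob at −0.03 in place of +0.41. The vesicle carrier Slc18a2 was at −0.20 in place of +0.17.

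**Figure D4:**
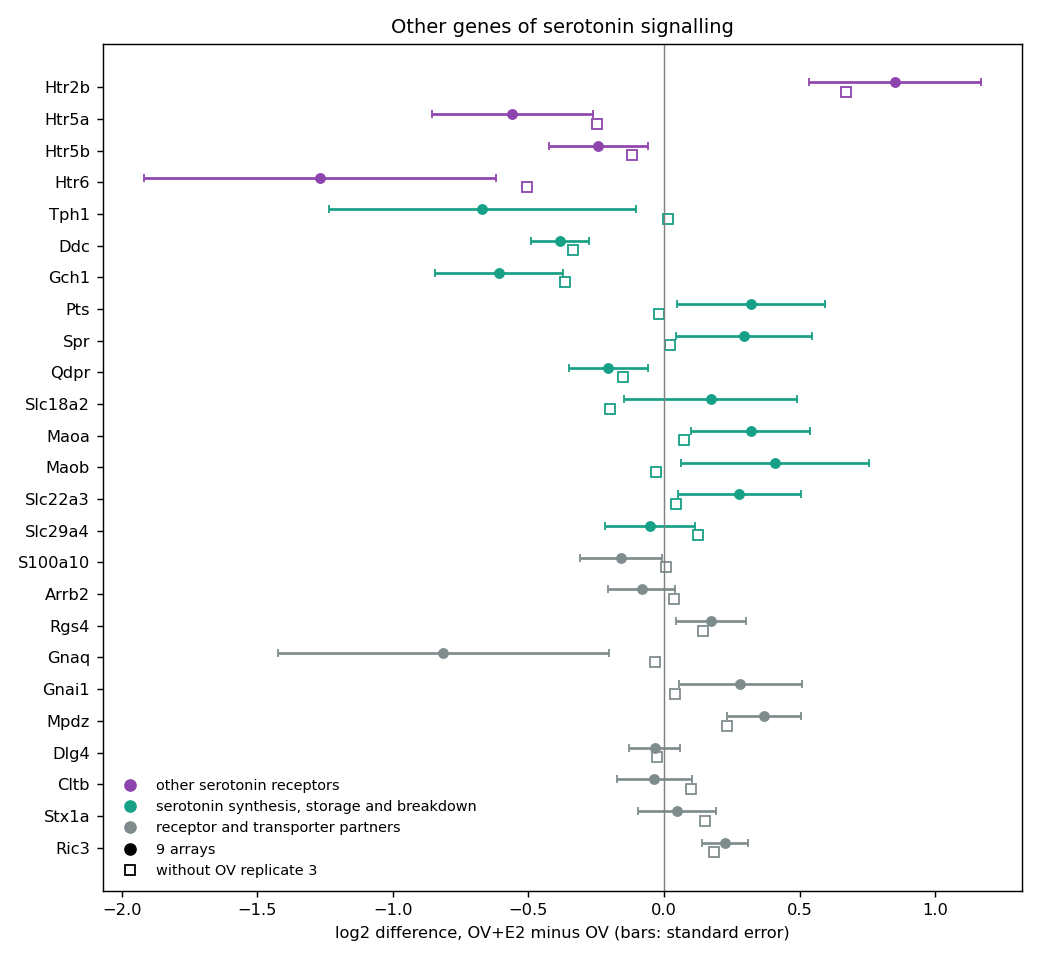
Log2 differences (OV+E2 minus OV) of the 25 tested other serotonin pathway genes, as filled circles with all 9 arrays (bars are standard errors) and as open squares without OV replicate 3. Ddc stays at −0.38 and −0.33, while Htr6, Tph1 and Gnaq lie at −1.27, −0.67 and −0.81 with all arrays and at −0.51, 0.01 and −0.03 without OV replicate 3.

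For each tested receptor gene the genes of most similar profile were taken over the 8 arrays without OV replicate 3, among 14989 named genes. The measure was Pearson's r on log2 values. Its 99th percentile over the genes compared was 0.77 for Htr3a, 0.84 for Htr2c and 0.88 for Htr4. Only the similar genes of these receptors are named here. For Htr3a they were Plk5 (r = 0.984), Dlx2 (0.964) and Rab3gap2 (0.946). For Htr2c they were Galnt14 (0.983), Ppil3 (0.961) and Tamm41 (0.958), and for Htr4 they were Usp28 (0.979), Urah (0.973) and Fam228b (0.962). With OV replicate 3 included r was 0.37, 0.90 and −0.36 for the genes named with Htr3a, −0.46, 0.996 and 0.998 for those named with Htr2c, and 0.79, 0.61 and 0.87 for those named with Htr4, in the same order. The likeness of these genes was picked from many over few arrays that share a tissue and is a description of these rats.

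Promoters of 5 of the 10 genes (Tph2, Htr1b, Htr1d, Htr2c and Htr7) had an entry in RefSeq's GRCr8 table, from 250 bases before to 50 after the start. The full palindromic estrogen response element was found in 0 of the 5 and in 9 of 33469 promoters of that length (0.0269%). Its single arm with a leading A, AGGTCA, searched on both strands and able to overlap the longer motif, was found in 0 of the 5 and in 16.2% of all promoters. The search says that these letters are not in these windows.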

How the data were processed

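The authors deposited Agilent 1-colour (Cy3) scanner files, whose processed signal is an intensity after background subtraction. Feature Extraction is given as version 9.1 per the submitters' processing notes and as 10.7.3.1 per the file headers. The scaling of the authors' deposited value table, also read as linear intensity, is not stated in the labels or headers. Controls (4259 of 62976 spots) and outlier spots were left out, and spots of a probe were averaged. Values were log2 of the deposited intensity minus the array's 75th percentile. Probes that 4 or more of the 9 arrays measured well above background were tested with limma 3.58.1 in R 4.3.3 (lmFit, eBayes, group as the only term) and Benjamini-Hochberg adjustment over 30215 probes, with a threshold of 0.05. A gene outside the 10 was represented by its brightest tested probe. The lowest exact two-sided permutation p is 0.0159. Genes named besides the 10 were the other pathway genes at an unadjusted p under 0.05, those whose difference was moved by OV replicate 3, listed markers and the 3 most similar genes; the second of these groups was chosen after its values were seen. The members and lists were chosen with earlier results of these data known. Same-numbered rats had correlations of deviations of 0.17, −0.08, −0.01 and 0.10, and differently numbered rats −0.29 to 0.12. Such values cannot show whether rats were paired. The labels state no pairing, and the numbers were not taken as pairs. Alternatives were the background correction, scaling, filter, authors' table, slide, replicate block, array weights and each rat left out. The methods were tested on simulated data. The number of arrays limits the precision.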

Additional observations from a re-analysis of the deposited data

Results flagged for a closer look

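In 6 cases 1 rat lay far from the others of its group, by the gap to its nearest neighbour as a share of the group's range on the log2 scale. Chance flags about 1 in 20 groups, and the probes of 1 array are not independent. OV replicate 3 gave 3 of them: Htr1d at −3.66, the lowest of its group, the Htr2a probe A_44_P508280 at −2.04, the highest, and the brighter Htr2c probe at 0.67, the lowest. OV+E2 replicate 1 was the lowest of its group for Tph2, at −6.27, where no array was well above background, and for the dimmer Htr2c probe, at −5.33. OV+E2 replicate 2 was the highest for the Htr4 probe A_64_P108419, at −1.26, and the only OV+E2 rat in which that probe was well above background.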

How the results depend on the processing

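The count of receptor probes at an adjusted p under 0.05 was 0 under every alternative run, the exact permutation test aside, which has no adjusted p. Over all probes the count, 0 in the main analysis, was 9 with no filter on dim probes, 69 in the authors' table, 3506 with array weights, 1 in the authors' table without OV replicate 3, 1 with slide as a block without OV replicate 3, and 0 to 1 with 1 rat left out (1 without OV replicate 1, and 1 without OV replicate 3). The median receptor difference of −0.02 was −0.27 with normexp, −0.24 with no filter, 0.0853 with median scaling and 0.12 with quantile normalization. It was −0.13 with slide as a block without OV replicate 3, and −0.10 to 0.02 with 1 rat left out. The median over all probes was −0.11 under normexp, −0.13 with no filter, 0.11 under median scaling and 0.05 under quantile normalization. Of the other pathway genes 2 of 25 passed with array weights, where 3506 of 30215 probes did. At an unadjusted p under 0.05 receptor probes numbered 1 of 11 with normexp (8.39% of all probes), 3 of 10 in the authors' table (18.8%) and 2 of 11 with array weights (31.5%). They numbered 1 of 11 with slide as a block without OV replicate 3 (15.6%) and 0 to 1 with 1 rat left out (6.69% to 17.6%). Other pathway genes numbered 5 of 25 in the main analysis (10.4% of all probes). They numbered 3 with normexp (8.39%), 2 with slide as a block (7.63%), 1 with the replicate block (6.51%) and 8 with array weights (31.5%). With the mean of all probes of a gene they numbered 3, and with 1 rat left out 2 to 6 (6.69% to 17.6%).

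Single receptor probes turned sign as follows. Htr1a was at 0.0853 with median scaling, 0.46 with quantile normalization, 0.0713 with the replicate block and −0.17 to 0.0884 with 1 rat left out. The Htr1b probe A_43_P15558 was at −0.34 with normexp, −0.31 in the authors' table, −0.14 with array weights, −0.25 to 0.33 with 1 rat left out, −0.25 in the authors' table without OV replicate 3, −0.28 with slide as a block without it and −0.28 without OV replicates 2 and 3. Htr1d was at −0.27, −0.20 and −0.0564 with normexp, the authors' table and array weights, −0.0408 with slide as a block, −0.0141 with the replicate block, −0.0857 to 0.16 with 1 rat left out, −0.0856 and −0.15 in the authors' table and with slide as a block without OV replicate 3, and −0.0683 without OV replicates 2 and 3. The Htr2a probe A_44_P508280 was at 0.00490 in the authors' table and 0.0427 with array weights, and A_64_P033249 was at −0.14 with normexp and −0.10 to 0.0898 with 1 rat left out. Htr3a was at 0.00269 without OV replicates 2 and 3, a setting chosen after seeing the data. Leaving out OV replicate 3 moved the brighter Htr2c probe to 0.14. The cause was not tested. The replicate block, over the 8 arrays whose numbers occur in both groups, gave 0 calls over all probes and changed no adjusted call. Probes near background (Htr1a, Htr1b, Htr7, the dimmer Htr2c probe) limit what these arrays show.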
